A study of Mus musculus with 12 samples.

Results

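The transcription factor genes of photoreceptors (PRs) Otx2, Crx, Nrl, Nr2e3, Rorb, Rax, Neurod1, Mef2d, Esrrb and Thrb were followed in whole mouse retinas after deletion of Otx2 in adult PRs. The 10 genes were chosen by name for their known roles, with earlier results of these data known, and were found by symbol among the 54146 genes counted. All 10 passed the filter on low counts, which kept 18628 genes. RNA of 12 mice was sequenced as 1 library per mouse, with 3 P30 control mice (numbered 1 to 3) and 3 conditional knock-out (cKO) mice each at P32 (mice 4 to 6), at P34 (mice 7 to 9) and at P38 (mice 10 to 12). The cKO mice carried the Crx-CreERT2 transgene, which drives a tamoxifen-dependent Cre recombinase in PRs, and Otx2 flox/flox alleles, on a 129/SV background. They had a single intraperitoneal injection of tamoxifen in oil at P30 and were killed 2, 4 or 8 d later, while control mice were killed at 0 d, at P30. The labels call the P30 mice controls and give no allele for them, and state the injection in the same words for every sample. Age, tamoxifen and deletion therefore changed together between the P30 and the cKO mice and cannot be told apart. The whole-retina RNA included that of the retinal pigment epithelium (RPE), where Otx2 is also expressed, as it is in bipolar cells. The Crx promoter directs Cre to PRs, so Otx2 transcripts of other cells are part of the counts.

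OTX2 and CRX are related homeodomain proteins that bind the same short DNA motif: OTX2 starts the PR program, and CRX drives the genes of the mature PR. NRL and its target NR2E3 set rod against cone identity, RORB acts upstream of NRL, and TRβ2, a product of Thrb, patterns cone opsins. NEUROD1, MEF2D, ESRRB and RAX act beside them in PR maturation, PR gene activation, rod survival and eye field formation.

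Otx2 (ENSMUSG00000021848) lies on chromosome 14 of GRCm38 from 48657677 to 48673819, on the minus strand. Recombination takes out coding exon 2 and with it much of the DNA-binding domain. In the GENCODE M21 transcript with the most exons this is exon 5 of 6, at chr14:48661299-48661450, and its 152 bases make up 5.86% of the transcript of 2592 bases. It is shown because it is the part of the messenger RNA that recombined alleles lose.

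Otx2 second coding exon: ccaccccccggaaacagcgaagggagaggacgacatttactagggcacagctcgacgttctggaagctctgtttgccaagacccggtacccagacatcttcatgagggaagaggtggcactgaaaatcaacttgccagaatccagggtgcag

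With reads spread evenly and no other change, loss of this exon from every Otx2 transcript would move the gene's log2 count by -0.09. Counts per gene therefore do not check the deletion, and reads over single exons were not analysed here.

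The upstream sequence of Crx is shown because CRX and OTX2 share the TAATCC motif, which was searched with its reverse GGATTA in the 250 bases upstream of each RefSeq start (GRCm38). For 9 of the 10 genes, all but Rax, there were 15 windows in all, since some genes have several starts. The letters were in 3 of the 15 (1 each of Otx2, Crx and Thrb) and in 6.25% of all 32851 windows. The Crx window held them at 94 and at 21 bases upstream of the start. The 237 bases below, at chr7:15879969-15880205 on the minus strand, are the part of that window outside annotated exons, and the 30 bases of Otx2 (chr14:48665303-48665332, minus strand) and of Thrb (chr14:17660902-17660931, plus strand) surround their single match. Capitals mark the motif, read 5′ to 3′ along each gene.

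Crx upstream: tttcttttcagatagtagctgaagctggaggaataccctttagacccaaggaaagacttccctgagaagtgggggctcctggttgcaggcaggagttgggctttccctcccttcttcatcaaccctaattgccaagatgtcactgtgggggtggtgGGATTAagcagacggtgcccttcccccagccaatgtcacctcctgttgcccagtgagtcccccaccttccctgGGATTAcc
Otx2 site: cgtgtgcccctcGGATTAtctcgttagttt
Thrb site: cgtgacgcggcgGGATTAactttgcatggc

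The letters TGCTGA, the core of NRL sites, were in 4 of the 15 windows (of Otx2, Rorb, Neurod1 and Mef2d) and in 16.08% of all windows. AGGTCA, the core of nuclear receptor sites, was in 1 of the 15 (Thrb) and in 14.02% of all windows, and the E-box CAGATG was in 2 of the 15 (Otx2 and Nrl) and in 14.44%. Both strands were read for each motif. A match is a description of these letters, and binding was not measured.

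Counts on genes ranged from 29701483 to 60145034 per library. Levels are given as CPM, the counts of a gene relative to the TMM-scaled total of its library, and every one of the 10 genes had at least 1537 counts in every library, so counting error was small against the spread between mice. Sex was read from Xist and Y-linked counts, and the 3 P30 mice were female while mice 4, 7, 8, 10 and 11 were male. Mouse 4 at P32 stood apart: genes with at least 5000 bases of exon had a median log2 level 0.33 below their mean over the 12 libraries there, and genes with at most 2000 bases lay 0.62 above. In the other 11 libraries both medians stayed between -0.23 and 0.11. Its share of reads without a unique position was also the highest, at 32.2% against 23.7 to 29.3%. Among the 10 genes, mouse 4 had the lowest level of 5 (Nr2e3, Rorb, Mef2d, Esrrb and Thrb) and the highest of Rax. Mouse 10 at P38 had the highest level of 5 (Crx, Nrl, Nr2e3, Esrrb and Thrb). The summed CPM of 25 rod genes was also highest in mouse 10, at 162736 against 90764 to 144616 in the other mice.

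Calls were made by edgeR's quasi-likelihood test, where the p adjusted by Benjamini-Hochberg over all genes tested had to be 0.05 or less and the log2 fold change 0.5 or more in either direction. Against the P30 mice, 0 of the 10 genes were called in each of the 3 cKO groups, and 0 in the 9 cKO mice as 1 group. Over all genes tested the calls were 0% for P32 mice, 0.66% for P34 mice, 0% for P38 mice and 0.0537% for the cKO mice together. At an unadjusted p of at most 0.05 the counts of the 10 genes were 0, 0, 1 (Esrrb) and 0, where 5.64%, 10.5%, 5.64% and 2.63% of all genes had such a p. DESeq2 also called 0 of the 10 in these comparisons, and 0.134%, 1.98%, 0.242% and 0.247% of all genes. Over the 10 genes the log2 fold change had a median of 0.002 in P32 mice, 0.12 in P34 mice, 0.16 in P38 mice and 0.09 in the cKO mice together, and that of all genes tested lay between -0.0091 and 0.0096. In this whole-tissue RNA, fewer cells of a type and less RNA per cell cannot be told apart.

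**Figure D1:**
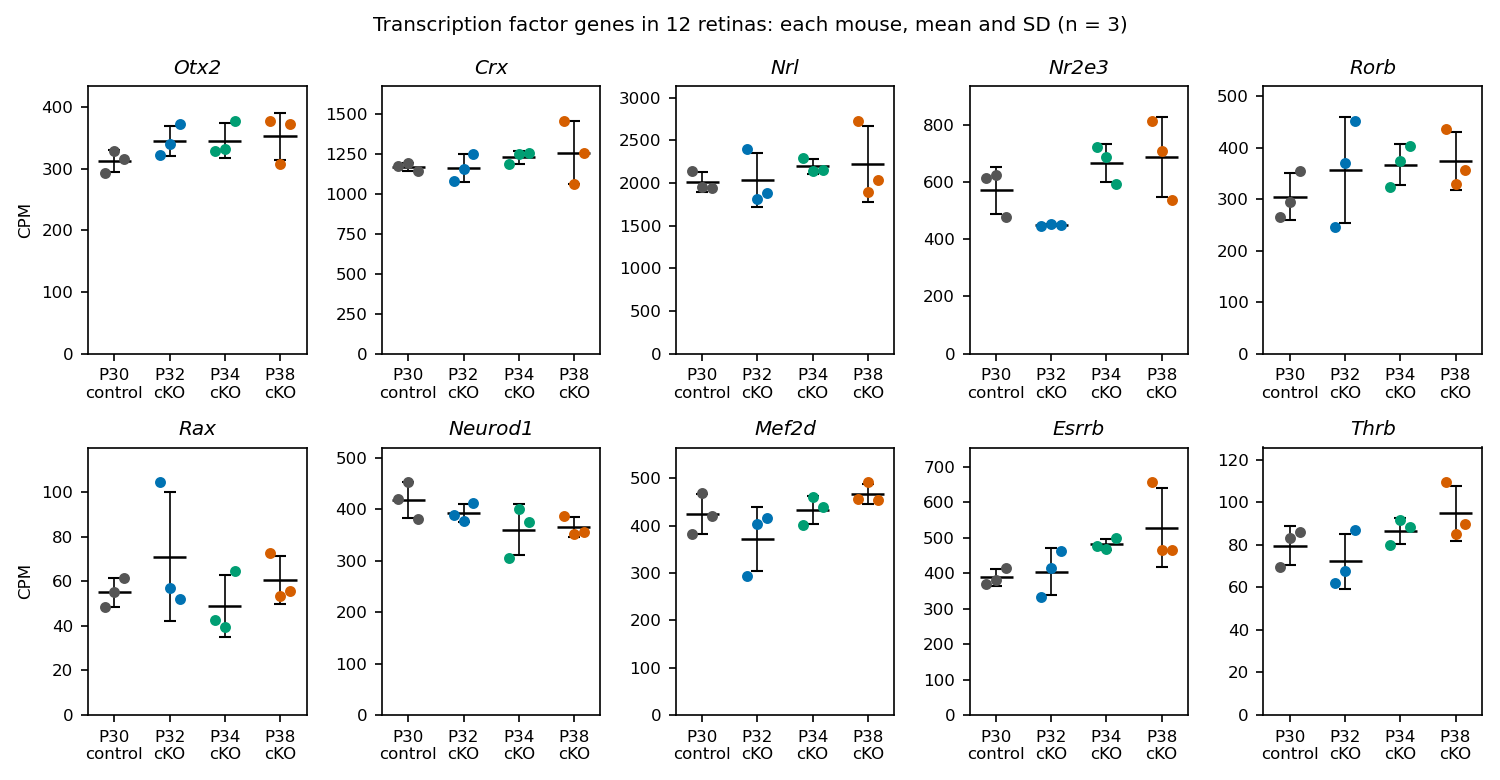
CPM (vertical axes, from 0) of each of the 10 genes in the 3 mice of each group, with 1 point per mouse in the order of the mouse numbers, the mean as a horizontal line and the SD as whiskers (n = 3). The points of the 4 groups overlap for most genes; Nr2e3 at P32 (445 to 453 CPM) lies below every other group and Esrrb at P34 and P38 (464 to 656 CPM) lies above P30 (368 to 414 CPM).

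Otx2, the deleted gene, had 293, 328 and 315 CPM in the P30 mice. The P32 mice had 322, 340.3 and 372 CPM, the P34 mice 328, 331 and 377 CPM and the P38 mice 377, 307 and 372 CPM. The lowest of the 12 values was that of P30 mouse 1, and the groups overlapped at every age. The log2 fold change against P30 lay between 0.14 and 0.17 at the 3 ages (standard error 0.11, adjusted p = 0.684 to 0.847). Without mouse 6 it was 0.09 at P32, without mouse 9 it was 0.065 at P34 and without mouse 11 it was 0.26 at P38. With sex as a covariate it was 0.25 at P34 and 0.28 at P38, and with library totals only it was 0.095 and 0.09. With the cKO mice together it was 0.16, with a 95% interval from -0.04 to 0.35. The lower bound at P32 was -0.10. Otx2 shares 154 exon bases with the long noncoding gene Otx2os1 on the other strand and 168 with Gm49154 on its own strand.

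Crx, the homeobox gene whose product drives PR genes, had 1174, 1193 and 1141 CPM at P30. The P32 mice had 1081, 1154 and 1251 CPM, the P34 mice 1184, 1248 and 1254 CPM and the P38 mice 1457, 1061 and 1255 CPM. P38 mice 10 and 11 held both the highest and the lowest value of the series, so the P38 group enclosed all the others. Its log2 fold changes were the smallest of the 3 homeobox genes, at -0.01, 0.07 and 0.11 (standard error 0.13 each, adjusted p = 0.898 to 0.985). Crx had no annotated overlapping gene. The ratio of Crx to Otx2 within a library, which does not depend on scaling between libraries, was 3.76 ± 0.221 at P30, 3.37 ± 0.0198 at P32, 3.57 ± 0.226 at P34 and 3.56 ± 0.267 at P38 (SD, n = 3). All P32 ratios (3.352 to 3.391) lay below the P30 ratios (3.623 to 4.012), while those of P34 and P38 overlapped P30. The difference in ratio was not tested.

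Rax, a homeobox gene of the early eye field that mature PRs express at low level, was the most variable of the 10 genes. It had 48.4, 55.2 and 61.4 CPM at P30 and 104, 56.7 and 52.1 CPM at P32. The P34 mice had 42.4, 39.5 and 64.8 CPM and the P38 mice 72.8, 53.2 and 55.4 CPM. The log2 fold change of 0.37 at P32 (standard error 0.26, adjusted p = 0.698) came with 1 high library, mouse 4, and with that mouse left out it was -0.02. At P34 the log2 fold change of -0.17 was -0.44 without mouse 9 and -0.04 without mouse 8, and at P38 that of 0.14 was -0.008 without mouse 10. Rax shares 1604 exon bases with the antisense gene Raxos1, which had 74 to 190 counts per library. Its within-group SD of log2 CPM was 0.37, and 0.26 without mouse 4.

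Neurod1, which encodes a basic helix-loop-helix factor of PRs and amacrine cells, had log2 fold changes below 0 at all 3 ages, none of which passed the test. It had 419, 452 and 381 CPM at P30 and 389, 377 and 411 CPM at P32. The P34 mice had 305, 400.4 and 375 CPM and the P38 mice 386, 351 and 356 CPM. The highest value was that of P30 mouse 2, and each cKO group overlapped P30. The log2 fold changes were -0.09, -0.21 and -0.20 (standard error 0.12 each, adjusted p = 0.561 to 0.847), and -0.16 for the cKO mice together with a 95% interval from -0.38 to 0.05. Without mouse 2 the P32 value was -0.03 and without mouse 7 the P34 value was -0.11. Neurod1 shares 201 exon bases with Cerkl on the same strand.

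Nrl, the leucine zipper gene that commits a precursor to the rod fate, had the highest CPM of the 10 genes. It had 2143, 1953 and 1936 CPM at P30, and 2393, 1814 and 1885 CPM at P32. The P34 mice had 2297, 2138 and 2149 CPM and the P38 mice 2728, 1895 and 2035 CPM. P32 and P38 each held 1 library above all P30 values (mice 4 and 10), and P34 held 2 (mice 7 and 9), so each group overlapped P30. Log2 fold changes were 0.01, 0.13 and 0.14 (standard error 0.16 each, adjusted p = 0.842 to 0.981). With sex as a covariate they were -0.06, -0.006 and 0.006, so no direction is given.

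Nr2e3, the orphan nuclear receptor gene that NRL activates and that represses cone genes in rods, differed most between cKO ages. It had 614, 624 and 476 CPM at P30, and 445, 453 and 449 CPM at P32. The P34 mice had 722, 687 and 593 CPM and the P38 mice 814, 710 and 538 CPM. All 3 P32 values lay below every value of the other 3 groups, while P34 and P38 each overlapped P30. Against P30 it differed by -0.35 on the log2 scale at P32 (95% interval -0.69 to 0.002, adjusted p = 0.698), 0.22 at P34 and 0.27 at P38 (adjusted p = 0.653 and 0.847). With sex as a covariate the last 2 were 0.06 and 0.09, and with 1 mouse left out they went down to 0.10 (without mouse 3) and 0.14 (without mouse 10). The highest P34 and P38 values were those of the male mice 7, 8, 10 and 11, while the female mice 9 and 12 had 593 and 538 CPM and all P30 mice were female. The male mouse 4 at P32 had the lowest value of all 12 libraries. With no male P30 mouse, the sex covariate rested on the cKO mice alone, and the part of sex in these values was not tested. From P32 to P34 the log2 fold change was 0.57 (standard error 0.16, unadjusted p = 0.00391, adjusted p = 0.0949), and from P32 to P38 it was 0.61 (standard error 0.16, unadjusted p = 0.00242, adjusted p = 0.114), so by edgeR neither passed. DESeq2 called both, with an adjusted p of 0.0127 and 0.00931. With mouse 4 left out, the same values were 0.56 and 0.61 (edgeR adjusted p = 0.236 and 0.265). The summed level of the 25 rod genes ranged from 100191 to 109304 CPM in P30 mice and from 90764 to 100778 in P32 mice. It ranged from 114018 to 144616 CPM in P34 mice and from 108897 to 162736 in P38 mice. Per 1000 CPM of these rod genes, Nr2e3 had 4.36 to 6.22 CPM in P30 mice, 4.461 to 4.996 in P32 mice, 4.994 to 5.645 in P34 mice and 4.28 to 6.52 in P38 mice, and on this scale the groups overlapped. The part of the rod genes in the Nr2e3 values was not tested.

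Esrrb, an estrogen-related receptor gene whose product supports rod survival, was the gene with the lowest unadjusted p against P30. It had 368, 381 and 414 CPM at P30, and 333, 416 and 463 CPM at P32. The P34 mice had 477, 469 and 499 CPM and the P38 mice 656, 464 and 464 CPM. All 6 values of P34 and P38 lay above every P30 value, while P32 overlapped P30 and held the lowest of the 12 values (mouse 4). It differed from P30 by 0.06 on the log2 scale in P32 mice, by 0.31 in P34 mice (95% interval -0.03 to 0.65, adjusted p = 0.514) and by 0.45 in P38 mice (95% interval 0.11 to 0.79, unadjusted p = 0.0143, adjusted p = 0.847). The last was under the limit of 0.5, and without P38 mouse 10 it was 0.27 (adjusted p = 0.915). Per 1000 CPM of rod genes, Esrrb had 3.65 to 3.81 CPM in P30 mice, 3.52 to 4.595 in P32 mice, 3.30 to 4.38 in P34 mice and 3.69 to 4.26 in P38 mice. On that scale every cKO group overlapped P30, and the part of the rod genes was not tested.

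Rorb, a retinoic acid related orphan receptor gene acting before Nrl in rod formation, had 266, 294 and 355 CPM at P30. The P32 mice had 246, 370 and 452 CPM, the P34 mice 324, 374 and 403 CPM and the P38 mice 437, 329 and 356 CPM. P32 spanned the whole range of the series, with mouse 4 lowest and mouse 6 highest. Log2 fold changes were 0.22, 0.27 and 0.30 (standard error 0.20 each, adjusted p = 0.681 to 0.847). At P32 the value was 0.02 without mouse 6 and 0.43 without mouse 4, at P38 it was 0.18 without mouse 10, and with sex as a covariate it was 0.45 at P34 and 0.49 at P38. The 95% intervals reached from -0.22 to 0.74.

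Mef2d, a MADS-box gene whose product works with CRX at PR genes, had 384, 469 and 422 CPM at P30. The P32 mice had 295, 405 and 416 CPM, the P34 mice 402, 461 and 439 CPM and the P38 mice 456, 492 and 455 CPM. Mouse 4 at P32 was the lowest, and the 3 P38 values lay close together. The log2 fold changes were -0.19, 0.03 and 0.14 (standard error 0.14 each, adjusted p = 0.698 to 0.965), and -0.0008 for the cKO mice together. Without mouse 4 the value at P32 was -0.05, and at P38 it was 0.07 without mouse 1 and 0.22 without mouse 2.

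Thrb, which encodes the thyroid hormone receptor needed for the M opsin pattern of cones, had 69.3, 83.3 and 86.1 CPM at P30. The P32 mice had 62.1, 67.5 and 86.8 CPM, the P34 mice 79.7, 91.5 and 88.2 CPM and the P38 mice 109, 85.2 and 89.6 CPM. Every cKO group overlapped P30. The log2 fold changes were -0.14, 0.12 and 0.25 (standard error 0.14 each, adjusted p = 0.742 to 0.847). At P32 it was -0.30 without mouse 6 and -0.04 without mouse 4, at P34 it was 0.03 without mouse 1, and at P38 it was 0.145 without mouse 10. The counts cover all Thrb isoforms, of which only the Thrb2 form is known from cones, and isoforms were not separated.

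**Figure D2:**
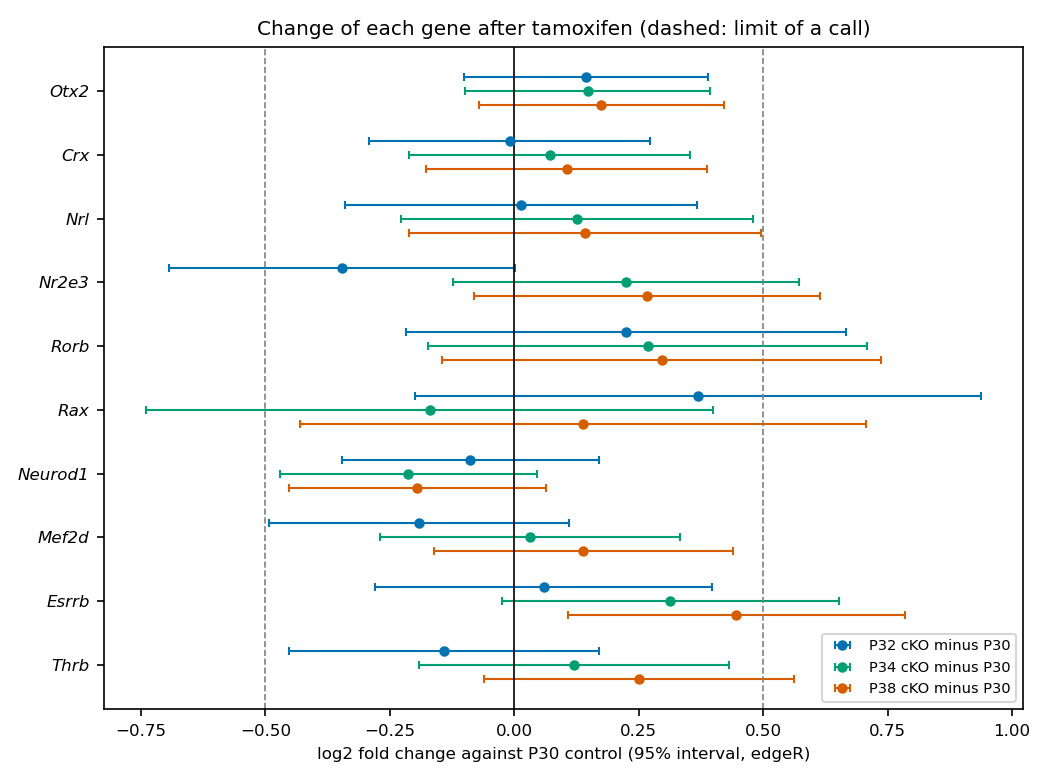
Log2 fold change of each gene against the 3 P30 control mice (horizontal axis) at P32, P34 and P38, with the 95% interval of edgeR's fit as whiskers; dashed lines mark the limit of 0.5 in either direction. The only interval without 0 is that of Esrrb at P38 (0.11 to 0.79), and Otx2 and Crx stay between -0.29 and 0.42 at all 3 ages.

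The 95% intervals lay inside -0.5 to 0.5 for 7 of the 10 genes in P32 mice, 6 in P34 mice and 5 in P38 mice, and Otx2, Crx, Nrl, Neurod1 and Mef2d were among them at every age. For all 10 genes at all 3 ages the intervals lay inside -1 to 1. Nr2e3 at P32 and Esrrb at P34 and at P38 were the members whose 3 values did not overlap those of P30, 1 of 10 at each age. Of all genes tested, 9.65% in P32 mice did not overlap P30, and 20.1% in P34 and 16.2% in P38 mice. The members' 1 of 10 at each age was within or near these shares. Between all 9 cKO mice and P30 the count was 0 of 10, and 0.601% of all genes.

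Between cKO ages, where P32 to P34 and P32 to P38 share the P32 mice, 0 of the 10 genes were called by edgeR from P32 to P34, from P34 to P38 or from P32 to P38, where 0.242%, 0.199% and 0% of all genes were called. At an unadjusted p of at most 0.05 there were 1 (Nr2e3), 0 and 4 (Nr2e3, Mef2d, Esrrb and Thrb), beside 26.9%, 5.08% and 23.3% of all genes. By DESeq2 the counts were 1, 0 and 1, Nr2e3 in both cases, and 7.63%, 0.773% and 4.99% of all genes were called. From P32 to P38, the log2 fold changes of Mef2d, Esrrb and Thrb were 0.33, 0.39 and 0.39 and did not pass (adjusted p = 0.186, 0.175 and 0.149), and these 3 genes and Nr2e3 had mouse 4 as their lowest library. Values did not overlap for Nr2e3 and Esrrb between P32 and P34 and for Nr2e3, Mef2d and Esrrb between P32 and P38, and for 0 genes between P34 and P38. The shares of all genes were 28.4%, 26.4% and 9.95%. Leaving out mouse 6 made Thrb pass from P32 to P38 (log2 fold change 0.55, adjusted p = 0.0312), and leaving out mouse 4 took it to 0.295. In the same fit without mouse 6, edgeR called 6.52% of all 19062 genes tested higher from P32 to P38.

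To compare genes with each other, CPM were divided by the length of all annotated exons of the gene in kb, which understates genes whose long exons are little used. On this scale Crx (370 ± 8.36 CPM per kb, SD, n = 3) and Nrl (353 ± 20.2) led at P30 and overlapped each other. Nr2e3 (170 ± 24.5) and Neurod1 (152.9 ± 12.97) followed, also overlapping. Otx2 (73.9 ± 4.24), Mef2d (71.0 ± 7.17) and Esrrb (64.1 ± 3.86) formed a group in which each neighbour overlapped the next, and Rorb (27.5 ± 4.13) stood alone. Thrb (10.8 ± 1.22) and Rax (9.41 ± 1.11) were lowest and overlapped. Crx ranked 44 of the 18628 genes tested at P30 on this scale, Nrl 49, Otx2 350 and Rax 5087. At P32 Neurod1 (144 ± 6.43) stood above Nr2e3 (133 ± 1.22) without overlap. At P34 and P38 Nr2e3 (198 ± 19.9 and 204 ± 41.3) stood above Neurod1 (132 ± 18.1 and 134 ± 7.04) without overlap.

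**Figure D3:**
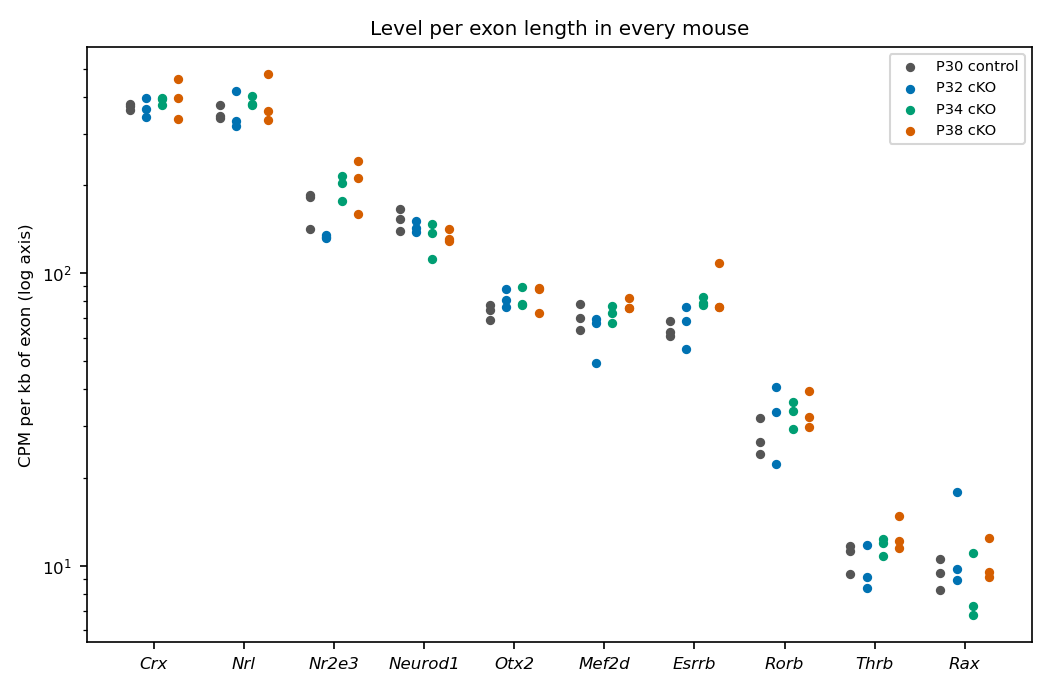
CPM per kb of exon (vertical log axis) of the 10 genes in each of the 12 mice, ordered by the P30 mean and coloured by group. Crx and Nrl lie at the top (353 to 370 CPM per kb at P30), Rax and Thrb at the bottom (9.41 to 10.8), and the order holds in each group apart from the neighbours Nr2e3 and Neurod1, Otx2, Mef2d and Esrrb, and Thrb and Rax.

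Within groups the SD of log2 CPM was 0.12 for Otx2, 0.13 for Crx and Neurod1, and 0.17 for Mef2d. It was 0.28 for Rorb, and the median of the 10364 genes with a mean of at least 10 CPM was 0.17. Over the 12 libraries the 3 genes most like Otx2 in log2 CPM were Tmem143 (Pearson r = 0.81, Spearman's rank correlation = 0.867), Kifc3 (0.81 and 0.755) and Zfp964 (0.80 and 0.762). For Crx they were Ipmk (0.88 and 0.867), Diaph3 (0.87 and 0.804) and Wdr17 (0.87 and 0.867). Otx2 and Crx themselves had r = 0.73, which was rank 13 among 10363 genes for Otx2 and rank 123 for Crx. Among the members Rorb was the most like Otx2 (r = 0.76, rank 7). These coefficients are descriptions over 12 libraries, 1 per mouse, that were scaled together and differ in depth, with the highest level in mouse 10 for all 6 of the genes named. Among the members Esrrb and Thrb were the most alike (r = 0.857), while without mouse 4 Otx2 and Rorb were (r = 0.815, against 0.798 for Esrrb and Thrb). The median over the 45 pairs was 0.25, and 0.37 without mouse 4.

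Relatives of the same families were set beside the members. Of 16 such genes 1, Otx1, was called at any age against P30. Otx1, the close relative of Otx2, had 2.46, 5.33 and 2.70 CPM at P30, and the P32 mice had 2.16, 2.77 and 0.715 CPM. The P34 mice had 0.331, 0.245 and 0.338 CPM and the P38 mice 2.30, 2.42 and 1.26 CPM. It fell at P34 by 3.52 on the log2 scale (standard error 0.53, adjusted p = 0.00893) and was lower there in 3 of 3 mice, and the call was lost when any 1 of the P34 mice was left out. Otx1 also belongs to the list of 17 ciliary body, iris and lens genes, whose summed CPM was 295 to 748 at P34 against 705 to 36415 at P30, and the part of that tissue in its fall was not tested. Otx1 per kb of exon was at 0.354 CPM on average, far under Otx2. Of the other relatives, Mef2c (beside Mef2d) had a log2 fold change of 0.44 at P38 (unadjusted p = 0.00787, adjusted p = 0.847) and Mef2b of 0.65 at P32 (unadjusted p = 0.00692, adjusted p = 0.698). Rora (beside Rorb), Esrra and Esrrg (beside Esrrb), Thra (beside Thrb), Nr2e1 (beside Nr2e3), Maf and Mafa (beside Nrl), Neurod2, Neurod4 and Neurod6 (beside Neurod1) and Mef2a did not pass at any age. The medians of the 16 were 0.03, 0.09 and 0.14 at P32, P34 and P38.

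Among 20 other regulators of PR genes, 0 were called at any age against P30, and the median log2 fold changes were -0.04, 0.05 and 0.07. Samd11, a repressor of non-rod genes, had 467 ± 173 CPM at P30 and 519 ± 63.1, 365 ± 106 and 567 ± 41.5 CPM at P32, P34 and P38 (SD, n = 3). Rora, a retinoid-related receptor of cones and inner neurons, had 312 ± 35.2 CPM at P30 and 273 ± 56.3, 366 ± 29.2 and 371 ± 21.3 CPM at the 3 later ages. Neither difference passed the test.

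Of 25 rod genes, which NRL, CRX and NR2E3 control, 0 were called against P30. Their median log2 fold changes were -0.08, 0.17 and 0.25, with 9, 25 and 24 of the 25 above 0, beside medians of all genes of -0.0088, -0.0013 and -0.0091. Of all genes tested, 51.5%, 50.2% and 51.8% were below 0 at these ages. Averaged over the 25 genes, the log2 difference from P30 was 0.31, 0.16 and 0.11 in P34 mice 7 to 9. In P38 mice 10 to 12 it was 0.55, 0.01 and 0.21. Gnat1, the rod transducin gene, had 12450.0 ± 664 CPM at P30 and 11454 ± 948, 15723 ± 2357 and 15875 ± 3363 CPM at the 3 later ages (SD, n = 3). Between cKO ages 0 of the 25 were called by edgeR, and DESeq2 called 4 higher from P32 to P34 and 7 from P32 to P38, where it called 3.11% and 2.8% of all genes higher. Without P32 mouse 6, edgeR called 5 and 7 higher, beside 7.43% and 6.52% of all genes. Of 12 cone genes 0 were called, with medians of 0.03, 0.04 and 0.03. Opn1sw, the S opsin gene, had 663 ± 102 CPM at P30 and 450.3 ± 28.8 CPM at P32 (log2 fold change -0.56, unadjusted p = 0.00403, adjusted p = 0.698), and 711 ± 65.9 and 687 ± 128 CPM at P34 and P38. Gnb3 had 417 ± 39.0 CPM at P30 and 438 ± 36.3 CPM at P32. Arr3, the cone arrestin gene, named after its values were seen, had 218 ± 28.0 CPM at P30 and 313 ± 11.7 CPM at P32 (log2 fold change 0.53, unadjusted p = 0.0295, adjusted p = 0.698).

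**Figure D4:**
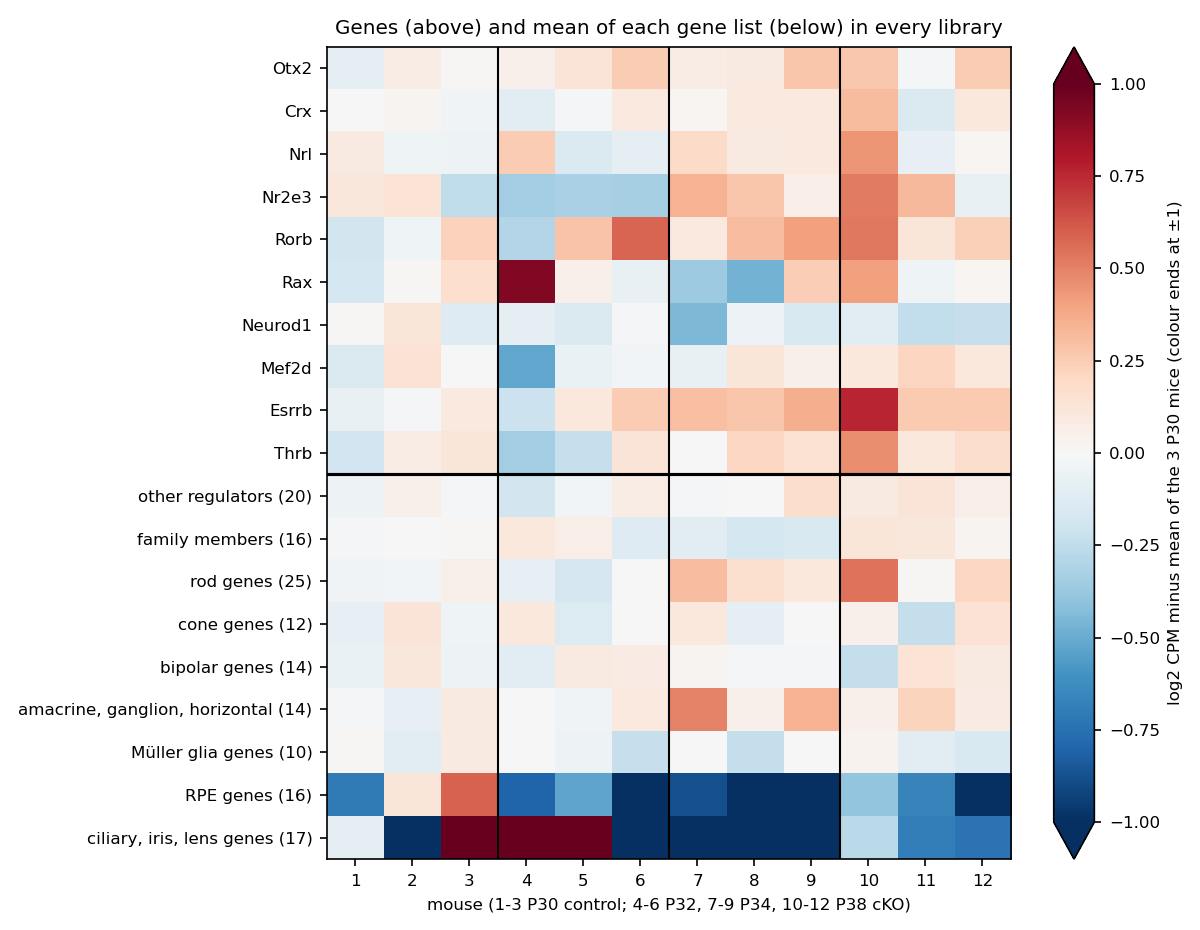
Colours show log2 CPM minus the mean of the 3 P30 mice for the 10 genes (upper rows) and the mean of that difference over each gene list (lower rows, with the number of genes), in the 12 libraries (columns, mouse numbers). The RPE list and the ciliary, iris and lens list change most between mice, including among P30 mice, while bipolar, cone and Müller glia rows stay pale and mouse 10 is dark in the rod row and in Esrrb.

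Bipolar cells also express Otx2 and Crx, and RPE cells express Otx2, so markers of other cells were counted beside the members. Of 14 bipolar genes 0 were called, and their summed CPM was 2005 to 2315 at P30 and 1868 to 2428 in the cKO mice. Prkca and Lrtm1, the most counted by their mean over the 12 libraries, had 338 ± 41.3 and 274 ± 17.1 CPM at P30. Of 14 genes of amacrine, ganglion and horizontal cells 0 were called, with a median of 0.35 at P34, where Nefl had 658 ± 112 against 479 ± 96.5 CPM and Gad1 456 ± 57.5 against 385 ± 6.66 CPM. Of 10 Müller glia genes 0 were called, and Glul had 2398 ± 170 CPM at P30 and 2675 ± 234 CPM at P34, while Dkk3 had 940.4 ± 72.3 and 703 ± 34.8 CPM. Of 16 RPE genes 2 fell at P34, the melanosome genes Tyrp1 (from 80.2 ± 52.5 to 6.03 ± 1.71 CPM, adjusted p = 0.0317) and Mlana (from 16.7 ± 12.0 to 0.785 ± 0.258 CPM, adjusted p = 0.0317), and 0 were called at P32 and P38. Of the 16, 10 had a log2 fold change below 0 at P34 and 6 above, with a median of -0.14. Leaving out P30 mouse 1 gave 6 calls at P34, and leaving out any 1 of mice 2, 3, 7, 8, 9, 10 and 11 gave 0. The summed CPM of the list was 852 to 1561 at P30 and 683 to 1002 in the cKO mice. Of the 17 ciliary, iris and lens genes 9 fell at P34 (Otx1, Zic1, Zic2, Zic4, Bmp4, Wif1, Cldn19, Optc and Col9a1), Optc from 87.8 ± 12.8 to 3.06 ± 0.871 CPM. Their summed CPM spanned 705 to 36415 among the P30 mice themselves, and 0 were called at P32 and P38. Without mouse 2 or mouse 7 there were 5 calls at P34, and without mouse 8 or mouse 9 there were 4.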

How the data were processed

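The deposited files hold raw counts of reads per Ensembl gene, 1 file per mouse, which the authors made from stranded poly(A) libraries aligned to mm10. The submitters' processing notes name bcl2fastq 2.17.1.14, STAR 2.5.3a and HTSeq 0.6.1p1. Rows that name no gene were left out, and symbols came from GENCODE M21.

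The counts were fitted with edgeR 4.0.16 (R 4.3.3) by glmQLFit and glmQLFTest after filterByExpr over the 4 groups and TMM scaling, with 1 mean per group, and with 2 means for the 9 cKO against the 3 P30 mice. The scripts were tested on simulated data. P-values were adjusted by Benjamini-Hochberg over 18628 genes. CPM are TMM-scaled, and 3 counts equalled 0.0499 to 0.101 CPM. Alternatives were other scalings, filters and thresholds, DESeq2 1.42.0, a robust fit, the compared groups alone, sex as a covariate and each mouse left out. The same alternatives for the other gene lists were chosen after seeing the data. Members and lists were chosen with earlier results of these data known. Genes were named as members, as the 3 most correlated with Otx2 or Crx (log2 CPM, prior count 2, mean of at least 10 CPM), as relatives of a member, or from each list as every gene called at any age, otherwise the 2 with the largest mean CPM. Rlbp1 stands in 2 lists (RPE and Müller glia), as do Otx1, Mef2a, Mef2c, Rora and Thra. Some genes that this rule names are not reported here.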

Additional observations from a re-analysis of the deposited data

Results flagged for a closer look

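Among the 9 cKO mice, Crx in mouse 10 (1457 CPM) stood apart from the next value by more than Dixon's limit, and so did Mef2d in mouse 4 (294.6 CPM, the lowest). The test was made for the 10 genes in the 9 cKO mice, and chance flags about 1 in 20 such groups. All 3 P32 mice lay below the P30 mean of Nr2e3 and all 3 P34 mice above it. The difference between these ages was 0.57 on the log2 scale (edgeR adjusted p = 0.0949). Likewise all P32 values of Mef2d lay below its P30 mean and all P38 values above, and these ages differed by 0.331 (edgeR adjusted p = 0.186).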

How the results depend on the processing

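Of 1390 log2 fold changes of the 10 genes over 20 alternatives, 1313 kept their direction and side of the threshold, 74 turned direction (in 29 of 70 results, none above 0.369 in size) and 3 newly passed. The cause was not tested. With library totals only, Crx at P32 against P30 was 0.02 and Mef2d at P34 against P30 -0.021. From P32 to P34 Otx2 was -0.081, Crx -0.003 and Rorb -0.039. From P34 to P38 Otx2 was -0.009, Crx -0.006, Nrl -0.025, Rorb -0.014 and Neurod1 -0.02. From P32 to P38 Otx2 was -0.089, Crx -0.009 and Rorb -0.052. Crx at P32 was 0.018 with only the compared groups and 0.011 with sex as a covariate. With sex, Nrl was -0.061 at P32, -0.006 at P34 and -0.029 for all cKO mice, where Nr2e3 was -0.168 and Mef2d 0.013. Mef2d for all cKO mice was 0.004 with DESeq2 size factors, 0.001 without filter and 0.005 by DESeq2. Otx2 from P32 to P34 was -0.001 with DESeq2 size factors, -0.009 with at least 1 CPM in 3 libraries and -0.002 by DESeq2.

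With 1 mouse left out, against P30 at P32 Crx ranged from -0.066 to 0.041, Nrl from -0.12 to 0.09, Rax from -0.015 to 0.55 and Esrrb from -0.05 to 0.181. At P34 Mef2d ranged from -0.037 to 0.109. At P38 Crx ranged from -0.005 to 0.214, Nrl from -0.024 to 0.245 and Rax from -0.008 to 0.222. For all cKO mice Nr2e3 ranged from -0.047 to 0.142, Rax from -0.01 to 0.212, Mef2d from -0.069 to 0.077 and Thrb from -0.005 to 0.141. From P32 to P34 Otx2 ranged from -0.075 to 0.061 and Rorb from -0.164 to 0.253. From P34 to P38 Otx2 ranged from -0.022 to 0.116, Crx from -0.084 to 0.143, Nrl from -0.158 to 0.118, Nr2e3 from -0.096 to 0.19, Rorb from -0.097 to 0.112, Neurod1 from -0.087 to 0.101 and Esrrb from -0.052 to 0.217. From P32 to P38 Otx2 ranged from -0.017 to 0.12, Crx from -0.001 to 0.224, Nrl from -0.045 to 0.262, Rorb from -0.136 to 0.281 and Rax from -0.412 to 0.152.

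Unadjusted p here means a p of at most 0.05 with the limit of 0.5 on the log2 fold change kept. The count of members higher from P32 to P34 went from 0 to 1 by DESeq2 and by unadjusted p. From P32 to P38 it went to 1 by DESeq2 and by unadjusted p, and ranged from 0 to 1 with 1 mouse left out. Of all genes, DESeq2 called 3.11% higher from P32 to P34 and 2.8% from P32 to P38. Without mouse 6, edgeR called 6.52% of all genes higher from P32 to P38. The adjusted p of Nr2e3 ranged from 0.0127 to 0.236 and from 0.00931 to 0.276 in these comparisons. Among the other lists, unadjusted p at P32 gave 2 family members higher, 1 cone gene lower and 1 higher, 1 bipolar gene lower, 6 RPE genes and 4 ciliary, iris and lens genes lower. RPE genes lower at P32 were 4 without filter and 0 to 1 with 1 mouse left out. At P34 family members lower were 0 to 1 with 1 mouse left out, and unadjusted p gave 2 amacrine, ganglion and horizontal genes higher and 1 Müller gene lower. RPE genes lower at P34 were 6 without filter, by DESeq2 and by unadjusted p, 0 with a robust fit, 4 with only the compared groups and 0 to 6 with 1 mouse left out. Ciliary, iris and lens genes lower were 17 without filter and by unadjusted p, 16 by DESeq2 and 4 to 10 with 1 mouse left out. At P38 unadjusted p gave 1 other regulator and 3 rod genes higher, 6 RPE genes and 5 ciliary, iris and lens genes lower, where DESeq2 gave 1 and 2, and no filter gave 3 RPE genes. Rod genes higher from P32 to P34 were 2 without filter, 4 by DESeq2 and by unadjusted p and 0 to 5 with 1 mouse left out, and from P32 to P38 they were 3, 7, 7 and 0 to 7.

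No paired analysis was possible because the groups share no replicate numbers. With 3 mice a group, the standard errors of the 10 genes against P30 were 0.113 to 0.261 on the log2 scale. A log2 fold change of 0.57 or 0.61 (Nr2e3 between cKO ages, standard error 0.16) did not pass edgeR, and changes under 0.5 in size could not be called for any gene.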
